A study of Homo sapiens with 6 samples.

Results

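The genes described here are 50 genes of mitosis, chosen by name: the kinases and cyclins that start it, the spindle checkpoint, the kinetochore, the spindle motors, the anaphase-promoting complex, cohesin, separase and securin, condensin, and a pair of mitotic chromosome proteins. Lines of the deposited table whose gene symbol equalled a listed name were summed per gene. Of the 50 genes, 47 were found among the 16571 genes of the table, and CDK1, BUB1 and CDC16 were not analysed here. A total of 44 had enough counts to be tested, while AURKA, CDC25C and KIF2C had too few.

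The study compared A2780 cells, a human line labelled as serous ovarian cancer, that carried the pGIPZ-NC control vector with A2780 cells that carried a hairpin against USP39 (shUSP39), a splicing factor of the spliceosome. Both groups were made with lentivirus and, per the study's methods, selected with puromycin as stable lines, so all cells compared here had been infected and selected. Each group held 3 RNA-seq libraries, described as biological triplicates, with total counts from 28294819 to 32939264 per library. The methods describe several hairpins, and which one these libraries carried is not given in the sources used here.

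Mitosis separates copied chromosomes into daughter cells. Cyclin-dependent kinase with cyclin B drives entry, condensin and topoisomerase II compact and untangle the chromosomes, and kinetochores attach them to spindle microtubules. Until every kinetochore is attached, the spindle checkpoint holds back the anaphase-promoting complex (APC/C), a ubiquitin ligase. Once released, the APC/C marks cyclin B and securin for destruction, separase is freed, and separase cuts the cohesin rings that hold sister chromatids together. Many of these genes are transcribed late in the cell cycle, through promoters with CCAAT boxes and an element called the CHR, whose usual letters are TTTGAA.

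To show these elements, the stretches just before the start sites of 6 of the genes are shown, 4 whose transcript was lower after USP39 knockdown (KIF11, ESPL1, NCAPG and NDC80) and 2 whose transcript did not pass the test (PLK1 and CDC20). Each line gives the 120 bases before the RefSeq start in GRCh38.p14, 5′ to 3′ on the gene's strand, with TTTGAA and also CCAAT in capitals, or the reverse complement where the motif lies on the other strand.
KIF11: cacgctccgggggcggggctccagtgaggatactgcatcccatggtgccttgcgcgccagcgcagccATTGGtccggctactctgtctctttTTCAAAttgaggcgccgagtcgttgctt
ESPL1: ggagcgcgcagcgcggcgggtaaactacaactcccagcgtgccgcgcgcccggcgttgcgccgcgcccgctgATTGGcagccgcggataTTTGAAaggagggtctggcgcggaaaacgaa
NCAPG: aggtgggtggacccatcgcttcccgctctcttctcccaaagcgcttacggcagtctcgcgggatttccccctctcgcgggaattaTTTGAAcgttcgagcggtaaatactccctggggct
NDC80: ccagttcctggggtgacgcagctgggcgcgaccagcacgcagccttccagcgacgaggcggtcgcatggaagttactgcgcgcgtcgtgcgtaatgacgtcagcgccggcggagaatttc
PLK1: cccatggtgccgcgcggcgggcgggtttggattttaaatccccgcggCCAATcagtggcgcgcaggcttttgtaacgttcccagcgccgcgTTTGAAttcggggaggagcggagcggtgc
CDC20: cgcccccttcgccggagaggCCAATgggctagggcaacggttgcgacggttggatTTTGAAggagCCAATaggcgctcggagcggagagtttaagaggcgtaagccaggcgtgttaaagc
All 6 genes are on the plus strand, and the stretches lie at chr10:92593010-92593129 (KIF11), chr12:53268179-53268298 (ESPL1), chr4:17810859-17810978 (NCAPG), chr18:2571437-2571556 (NDC80), chr16:23678769-23678888 (PLK1) and chr1:43358861-43358980 (CDC20). KIF11, ESPL1, PLK1 and CDC20 held both TTTGAA and CCAAT in these bases, NCAPG held TTTGAA alone, and NDC80 held neither here, although TTTGAA and also the variant TTCGAA lie elsewhere in its longer window, so it is counted among the holders in the next paragraph. The pattern of letters was thus found both in genes that fell and in genes that did not pass the test. It was not in every gene that fell. ANAPC1, SMC3, TOP2A and CCNB1, which fell, and CCNA2, which did not pass, held no TTTGAA in their 120 bases and are not shown. The longer windows of ANAPC1, SMC3 and TOP2A do hold it.

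Across the whole RefSeq window, from 250 bases before to 50 after the start, 44 of the 50 genes could be matched. TTTGAA on either strand was in 26 of them (59.1%), against 18.2% of 27305 genes with a window and 12.9% of the 8318 genes that were both tested here and matched. The variant TTCGAA was in 3 of them (6.82%), against 1.82% of all genes with a window. CCAAT on either strand was in 30 (68.2%), against 39.7% of all genes with a window and 42.8% of the tested ones. Among the matched genes that were lower after knockdown, 12 of 16 (75.0%) held TTTGAA, and among those that did not pass, 12 of 23 (52.2%) did. With only genes of a mean count of 1000 or more, the numbers were 11 of 14 and 5 of 7. A match is a description of the letters and not evidence of a binding site.

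The libraries were set side by side before the comparison. A count was seen in 12662 to 12819 genes in the 3 pGIPZ-NC libraries and shUSP39 replicate 1, but in 15446 and 14890 genes in shUSP39 replicates 2 and 3, so those 2 libraries stood apart and results were also computed with shUSP39 replicate 1 alone. The transcript of USP39 was not analysed here, and the labels were therefore not checked against the targeted gene. CPM (counts-per-million) is the count relative to the library total after TMM scaling for composition. Most markers that define ovarian carcinoma and epithelium were counted at or near 0 CPM in these libraries. KRT18 was the highest of them, while the other 7 measured, PAX8, EPCAM, MUC16, MSLN, CDH1, KRT7 and KRT8, were at group means between 0 and 2.50 CPM, and WT1 was not analysed here. Among the mesenchymal genes, VIM was at 11289 CPM in pGIPZ-NC. CDH2 was counted at a mean of 0.898 CPM over the controls and of 0.699 after knockdown. FN1 was not analysed here. The 6 immune and endothelial markers measured summed to 13 to 18 counts per pGIPZ-NC library and 18 to 68 per shUSP39 library. Of the fibroblast genes, COL1A2 was at a mean of 1160 CPM in the controls and of 459 after knockdown. LUM went from 4.73 to 0.380 CPM, DCN from 1.13 to 0.079 CPM and COL1A1 from 7.49 to 6.52 CPM. KRT18 went from 22.4 to 32.9 CPM, KRT8 from 0.979 to 0.031 CPM and MUC16 from 0.074 to 2.50 CPM with an SD of 2.36. The part of these differences in the results below was not tested. How reads shared by several transcripts of a gene were counted is not given in the sources used here. A marker with few counts was therefore not read as absent from the cells.

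The mitosis genes were lower or not detectably different after USP39 knockdown, and the falls were small. A gene was called where the Benjamini-Hochberg adjusted p of edgeR's quasi-likelihood test, over all 10695 tested genes, was under 0.05. Of the 44 tested genes, 18 were lower and 26 did not pass, where 17.5% of all tested genes were lower. None was higher, by edgeR, DESeq2's Wald test or limma-voom, where 16.1% of all tested genes were higher by edgeR. At an unadjusted p under 0.05 the numbers were 21 lower and 0 higher. None changed beyond 2-fold at either p, the limit the study set, where 6.81% of all tested genes did at the adjusted p. The median log2 fold change was −0.14 over the 44 genes and 0.01 over all tested genes. Among the 18 that fell, CCNB2 fell by 7.50% and NDC80, at the other end, fell by 27.3%, and each of the 18 was below the pGIPZ-NC mean in all 3 shUSP39 libraries. In 17 of the 18 the groups did not overlap, MAD2L1 being the exception. Over all 44, every shUSP39 library lay below every pGIPZ-NC library in 22 genes, against 22.5% of all tested genes, and above in SPC24 and SMC4, against 21.7%. The genes of the list together summed to a mean of 10379 CPM with an SD of 336 over the control libraries, and of 9171 with an SD of 201 over the knockdown libraries (n = 3 each). In bulk RNA, fewer cells in mitosis and less of each transcript per cell cannot be told apart.

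**Figure D1:**
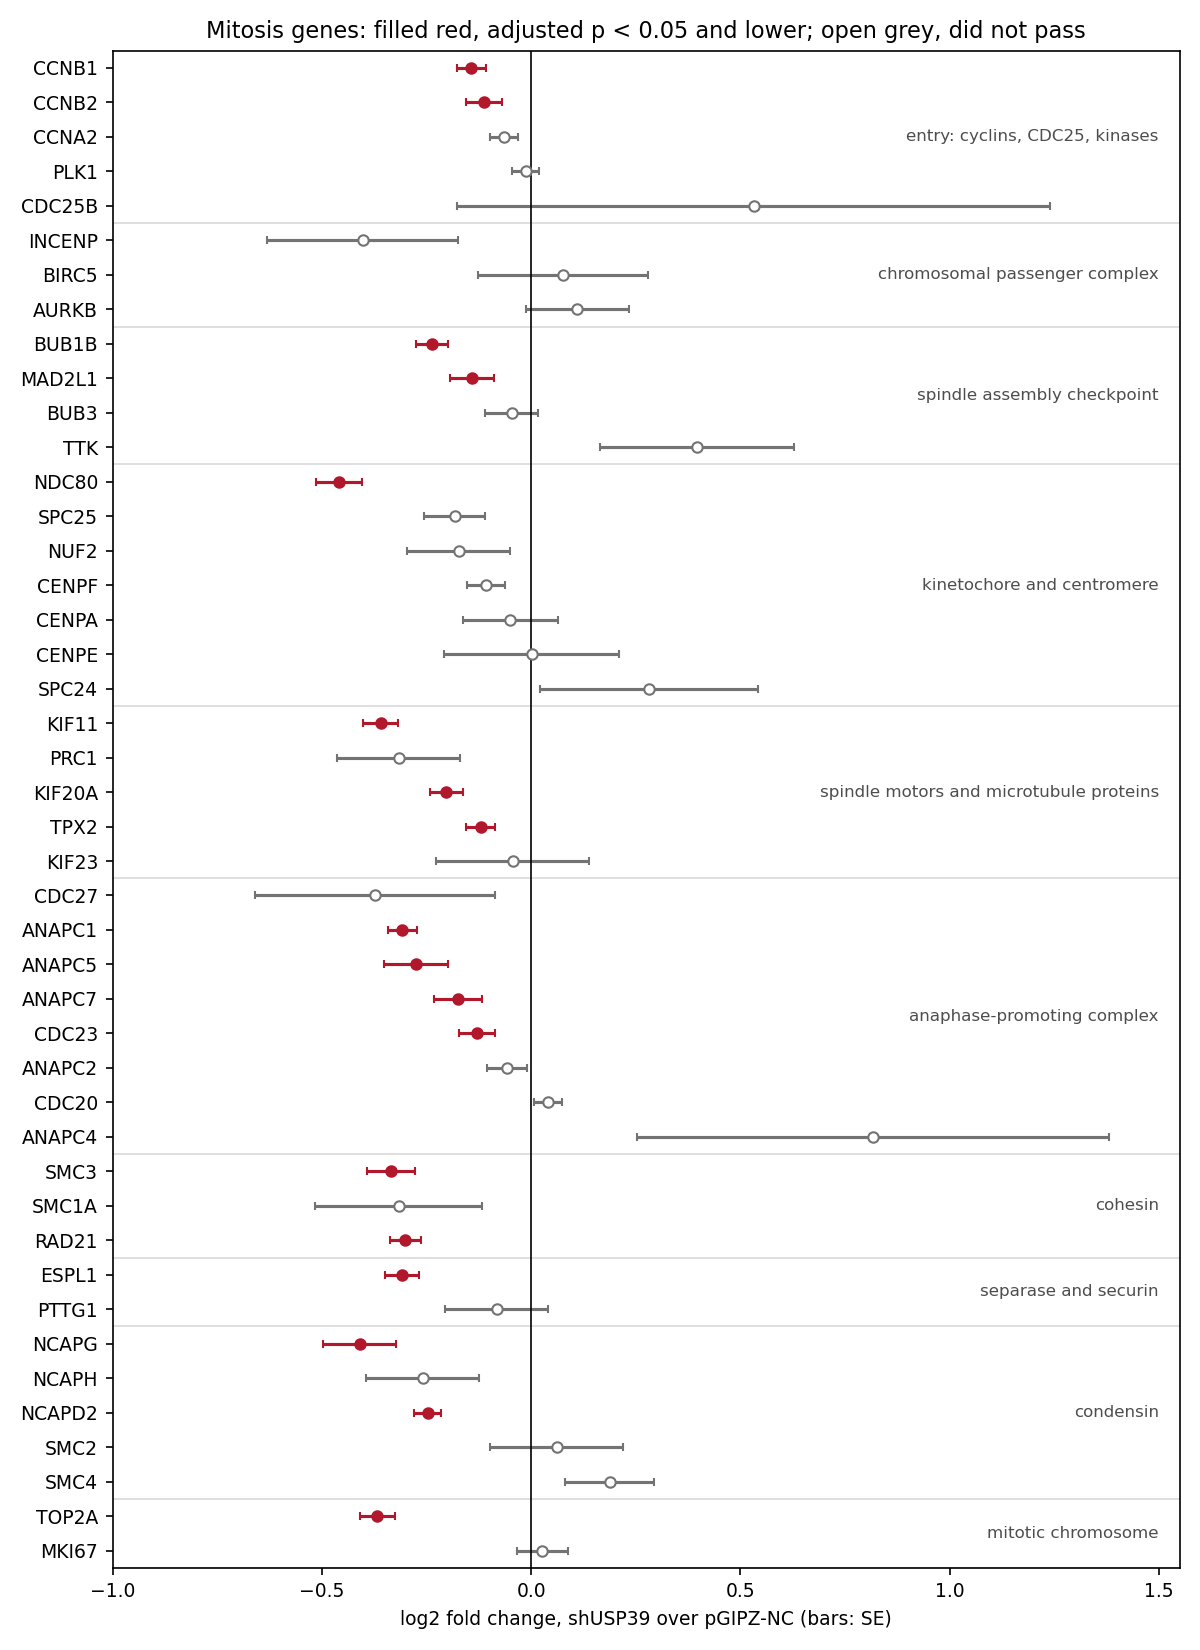
Log2 fold change (shUSP39 over pGIPZ-NC, horizontal axis) of the 44 tested mitosis genes, grouped by role, with bars of 1 SE. The 18 filled red points were lower at an adjusted p under 0.05, from −0.46 for NDC80 to −0.11 for CCNB2, and the 26 open grey points did not pass.

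Among the genes of mitotic entry, both B-type cyclins fell and the kinase PLK1 did not detectably differ. CCNB1, cyclin B1, the partner of the mitotic kinase (chr5:68462962-68474072, plus strand, GRCh37), was at 647, 609 and 616 CPM in the pGIPZ-NC libraries and 581, 553 and 562 CPM in the shUSP39 libraries. All 3 shUSP39 libraries lay below all 3 controls. It fell by 9.4% (log2 fold change −0.14, SE 0.034, adjusted p = 0.00172). With shUSP39 replicate 1 alone the call was lost (log2 fold change −0.10, adjusted p = 0.153). CCNB2, cyclin B2, fell less (log2 fold change −0.11, SE 0.043, adjusted p = 0.0433), and its call was kept in 6 of 16 alternatives. It was lost with shUSP39 replicate 1 alone and without any 1 library except shUSP39 replicate 2 (adjusted p from 0.0645 to 0.166). CCNA2, cyclin A2, was at 498, 504 and 508 CPM in the pGIPZ-NC libraries and 488, 469.9 and 485 CPM in the shUSP39 libraries. Its shUSP39 libraries were all below its controls, but the difference did not pass (log2 fold change −0.07, SE 0.033, adjusted p = 0.141). PLK1, the polo-like kinase that acts from entry to cytokinesis, was at 628, 649 and 640.2 CPM in the pGIPZ-NC libraries and 636, 623 and 642 CPM in the shUSP39 libraries. Its groups overlapped, and the difference was smaller than its error (log2 fold change −0.01, SE 0.032, adjusted p = 0.809). CDC25B, a phosphatase that switches on the mitotic kinase, averaged 9.67 counts per library and did not pass (log2 fold change 0.53, SE 0.708, adjusted p = 0.616). AURKA, which averaged the same 9.67 counts, and CDC25C, with 0.333, were under the limit for testing.

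None of the 3 tested genes of the chromosomal passenger complex, which corrects wrong attachments, passed. INCENP, its scaffold, had the lowest adjusted p and was at 3.86, 4.19 and 3.01 CPM in the pGIPZ-NC libraries and 2.28, 3.46 and 2.64 CPM in the shUSP39 libraries. The groups overlapped (log2 fold change −0.40, SE 0.228, adjusted p = 0.189). AURKB, its kinase, had a log2 fold change of 0.11 and BIRC5, survivin, of 0.08, with adjusted p of 0.541 and 0.818. INCENP and BIRC5 rested on mean counts of about 100.2 and 117.5 per library.

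Of the 4 tested spindle checkpoint genes, BUB1B and MAD2L1 were lower (50%, against 17.5% of all tested genes). Both had a mean count of 1000 or more, where 33.1% of all such genes were lower. BUB1B, or BubR1, a part of the complex that inhibits the APC/C (chr15:40453224-40513324, plus strand, GRCh37), was at 392, 373 and 359.6 CPM in the pGIPZ-NC libraries and 323, 319 and 312 CPM in the shUSP39 libraries. Every shUSP39 library was below every control, and the level fell by 15.1% (log2 fold change −0.24, SE 0.038, adjusted p = 1.52e-05). The annotation places the read-through gene BUB1B-PAK6 on the same strand over it, so reads of both may be mixed. MAD2L1, the other inhibitor of CDC20 in that complex, was at 293, 288 and 262 CPM in the pGIPZ-NC libraries and 279, 237 and 248 CPM in the shUSP39 libraries. Replicate 1 of shUSP39 lay among the controls while replicates 2 and 3 were below them (log2 fold change −0.14, SE 0.053, adjusted p = 0.0464). With replicate 1 alone its log2 fold change was −0.01 (adjusted p = 0.949), and its call held in 6 of 16 alternatives, being lost without pGIPZ-NC replicates 1 or 2 and without shUSP39 replicates 2 or 3 (adjusted p from 0.148 to 0.235). BUB3, which brings the checkpoint proteins to kinetochores, did not pass (log2 fold change −0.05, adjusted p = 0.627). TTK, the checkpoint kinase Mps1, had a log2 fold change of 0.40 (adjusted p = 0.203) and was called higher in 1 of 16 alternatives, without pGIPZ-NC replicate 1 (0.73, adjusted p = 0.0231).

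At the kinetochore, 1 of 7 tested genes fell (14.3%), a share under the 17.5% of all tested genes. That gene had the largest fall among the genes called. NDC80, the microtubule-binding subunit of the outer kinetochore (chr18:2571556-2616634, plus strand, GRCh37), was at 161, 146 and 142 CPM in the pGIPZ-NC libraries and 115, 101 and 110.4 CPM in the shUSP39 libraries. The highest shUSP39 library was well under the lowest control, and the level fell by 27.3% (log2 fold change −0.46, SE 0.055, adjusted p = 1.82e-07). Its 3 partners in the Ndc80 complex did not pass the test. SPC25 had a log2 fold change of −0.18 (adjusted p = 0.0573), NUF2 of −0.17 (0.312) and SPC24 of 0.28 (0.448). SPC24 and NUF2 averaged 66.7 and 340.0 counts per library, against 3984 for NDC80. CENPF, a large protein of the outer kinetochore, was close to the limit (log2 fold change −0.11, adjusted p = 0.0758), and both it and SPC25 were called lower in 5 of 16 alternatives, among them without pGIPZ-NC replicate 3 (adjusted p = 0.00729 and 0.0417), without shUSP39 replicate 1 (0.00875 and 0.0307) and, for SPC25, without pGIPZ-NC replicate 2 (0.0337). CENPA, the centromere histone, and CENPE, a kinetochore motor, had log2 fold changes of −0.05 and 0.00 with SE of 0.113 and 0.209.

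Of 5 tested genes of spindle motors and microtubule proteins, KIF11, KIF20A and TPX2 fell (60%, against 17.5% of all tested genes). Each of these had a mean count of 1000 or more, where 33.1% of all such genes were lower. KIF11, the Eg5 motor that pushes spindle poles apart (chr10:94333862-94415152, plus strand, GRCh37), was at 399, 381 and 349 CPM in the pGIPZ-NC libraries and 299, 296 and 286 CPM in the shUSP39 libraries. The shUSP39 libraries lay close together and under all controls, and the level fell by 22.1% (log2 fold change −0.36, SE 0.042, adjusted p = 1.18e-07). KIF20A, a motor of cytokinesis, fell by 13.1% (log2 fold change −0.20, SE 0.039, adjusted p = 0.000188). TPX2, which activates Aurora A on the spindle, fell by 8.0% (log2 fold change −0.12, SE 0.035, adjusted p = 0.00852), a call lost with shUSP39 replicate 1 alone (log2 fold change −0.06, adjusted p = 0.431) and without shUSP39 replicate 3 (−0.09, adjusted p = 0.0894). PRC1, which bundles the microtubules of the midzone, and KIF23, a motor there, did not pass, with log2 fold changes of −0.32 and −0.04 and adjusted p of 0.102 and 0.887. KIF2C, which takes microtubules apart at the centromere, averaged 2.33 counts per library and was not tested.

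**Figure D2:**
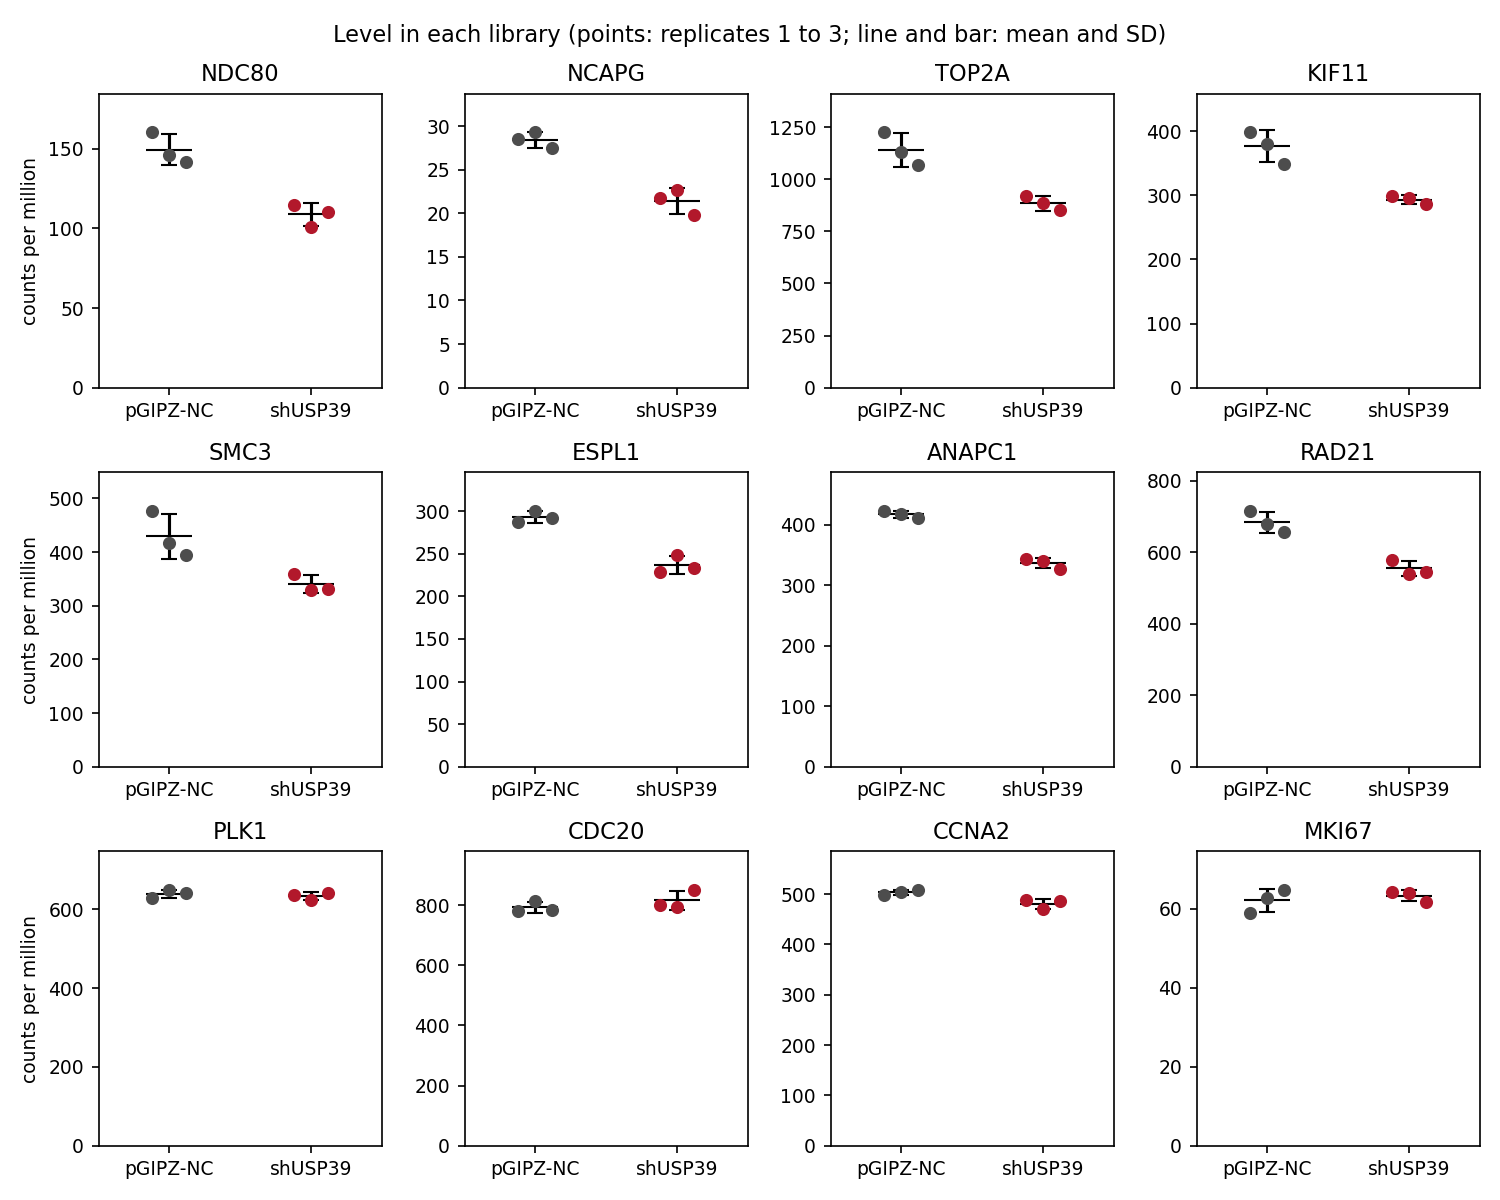
Level in each library (CPM, vertical axis from 0) for the 8 genes that passed the test with a log2 fold change of at least 0.3 in size and for PLK1, CDC20, CCNA2 and MKI67, which did not pass. Points are libraries, lines and bars the mean and SD (n = 3 per group). In NDC80, NCAPG, TOP2A, KIF11, SMC3, ESPL1, ANAPC1 and RAD21 every shUSP39 point lies below every pGIPZ-NC point.

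Of the 7 APC/C subunits of this list that were tested, 4 fell (57.1%, against 17.5% of all tested genes). Among all genes with a mean count of 1000 or more, 33.1% were lower. The activator CDC20 did not detectably differ. Further subunits of the complex are in a list described below, in which no gene was lower. ANAPC1, the largest scaffold subunit (chr2:112369216-112642267, minus strand, GRCh37), was at 423, 417 and 411 CPM in the pGIPZ-NC libraries and 342, 340.3 and 327 CPM in the shUSP39 libraries. Both groups were tight and did not overlap, and the level fell by 19.2% (log2 fold change −0.31, SE 0.035, adjusted p = 8.93e-08). GENCODE names 6 pseudogenes after ANAPC1, and how reads were divided among them is not given in the sources used here. ANAPC5, another scaffold subunit, fell by 17.3% (log2 fold change −0.27, SE 0.077, adjusted p = 0.00649) on a mean count of 941 per library. Its call was lost with shUSP39 replicate 1 alone (log2 fold change −0.28, adjusted p = 0.0873). ANAPC7 and CDC23, subunits of the arm that holds the activators, had log2 fold changes of −0.17 and −0.13 (adjusted p = 0.018 and 0.0225). Their calls held in 11 and 9 of 16 alternatives and were absent with shUSP39 replicate 1 alone (−0.11 and −0.08). That of ANAPC7 was also lost without pGIPZ-NC replicate 1 or shUSP39 replicates 2 or 3 (adjusted p from 0.0710 to 0.102), and that of CDC23 without pGIPZ-NC replicates 2 or 3 or shUSP39 replicates 2 or 3 (adjusted p from 0.0585 to 0.124). ANAPC2, part of the catalytic core, did not pass (log2 fold change −0.06, adjusted p = 0.392). CDC27 (−0.37) and ANAPC4 (0.82) averaged 56.2 and 15.2 counts per library and did not pass. CDC20, which carries substrates to the APC/C and is the target of the checkpoint, was at 781, 815 and 784 CPM in the pGIPZ-NC libraries and 802, 796 and 851 CPM in the shUSP39 libraries. The groups overlapped (log2 fold change 0.04, SE 0.033, adjusted p = 0.38), and under upper-quartile scaling it was called higher (log2 fold change 0.09, adjusted p = 0.0431). CDC23 and KIF20A overlap each other on opposite strands. Whether the counting used strand is not given in the sources used here, so reads of their shared end cannot be told apart. The same limit holds for ANAPC1, ANAPC5, RAD21, NCAPG and NCAPD2, which overlap other annotated genes on the opposite strand. ANAPC1 and ANAPC7 also overlap an annotated gene on the same strand.

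Both cohesin genes with a mean count of 1000 or more fell, where 33.1% of all such genes did. SMC3, a long arm of the ring (chr10:112327442-112365806, plus strand, GRCh37), was at 477, 417 and 395 CPM in the pGIPZ-NC libraries and 359.8, 330.1 and 332 CPM in the shUSP39 libraries. The control libraries were the more spread, with replicate 1 the highest, and no shUSP39 library reached them. The level fell by 20.7% (log2 fold change −0.34, SE 0.057, adjusted p = 0.000244). RAD21, the link of the ring that separase cuts (chr8:117858173-117887015, minus strand, GRCh37), was at 716, 679 and 656 CPM in the pGIPZ-NC libraries and 579, 540.4 and 546 CPM in the shUSP39 libraries. The groups did not overlap, and it fell by 18.8% (log2 fold change −0.30, SE 0.037, adjusted p = 2.60e-07). SMC1A, the other arm, had a similar fitted value with a wide error on a mean count of 131 (log2 fold change −0.32, SE 0.200, adjusted p = 0.245). ESPL1, separase itself (chr12:53662083-53687422, plus strand, GRCh37), was at 287, 300.4 and 292 CPM in the pGIPZ-NC libraries and 229, 249 and 233 CPM in the shUSP39 libraries. It fell by 19.2%, with all shUSP39 libraries below all controls (log2 fold change −0.31, SE 0.040, adjusted p = 7.75e-07). PTTG1, securin, which holds separase inactive until anaphase, did not pass (log2 fold change −0.08, adjusted p = 0.663).

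In condensin, 2 of 5 tested genes fell (40%, against 17.5% of all tested genes), both of them non-SMC subunits of condensin I. NCAPG (chr4:17812602-17846488, plus strand, GRCh37) was at 28.5, 29.3 and 27.5 CPM in the pGIPZ-NC libraries and 21.7, 22.7 and 19.8 CPM in the shUSP39 libraries. The groups did not overlap and the level fell by 24.7% (log2 fold change −0.41, SE 0.087, adjusted p = 0.000484). NCAPD2 fell by 15.8% (log2 fold change −0.25, SE 0.033, adjusted p = 1.10e-06). NCAPH, the link of condensin I, lay lower in all shUSP39 libraries without passing (log2 fold change −0.26, adjusted p = 0.151). SMC2 and SMC4, the arms shared by both condensins, had log2 fold changes of 0.06 and 0.19 and did not pass, with adjusted p of 0.813 and 0.185. TOP2A, topoisomerase IIα, which untangles sister DNA (chr17:38544777-38574148, minus strand, GRCh37), was at 1228, 1131 and 1067 CPM in the pGIPZ-NC libraries and 921, 884 and 851 CPM in the shUSP39 libraries. Every shUSP39 library was under every control, and it fell by 22.5% (log2 fold change −0.37, SE 0.041, adjusted p = 3.29e-07). MKI67, the Ki-67 protein that coats mitotic chromosomes and is used as a marker of cycling cells, was at 59.1, 62.7 and 64.8 CPM in the pGIPZ-NC libraries and 64.2, 64.1 and 61.7 CPM in the shUSP39 libraries. Its groups overlapped (log2 fold change 0.03, SE 0.061, adjusted p = 0.786).

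Most of the larger falls held under every choice tried. BUB1B, NDC80, KIF11, KIF20A, ANAPC1, SMC3, RAD21, ESPL1, NCAPD2, NCAPG and TOP2A, 11 genes, were lower in all 16 alternatives, with log2 fold changes from −0.50 to −0.16, and these are the 11 called with shUSP39 replicate 1 alone. The size of the change could be measured only as far as the counts allowed. Of the 24 genes with a mean count of 1000 or more per library, 16 were lower (33.1% of all such genes were), with SE from 0.032 to 0.073. Of the 20 tested genes with fewer, 2 were lower (9.01% of all such genes were), with SE from 0.077 to 0.708. The 8 well-counted genes that did not pass had log2 fold changes from −0.18 to 0.04. The median over the 24 genes was −0.16, against −0.05 over all genes with that many counts.

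**Figure D3:**
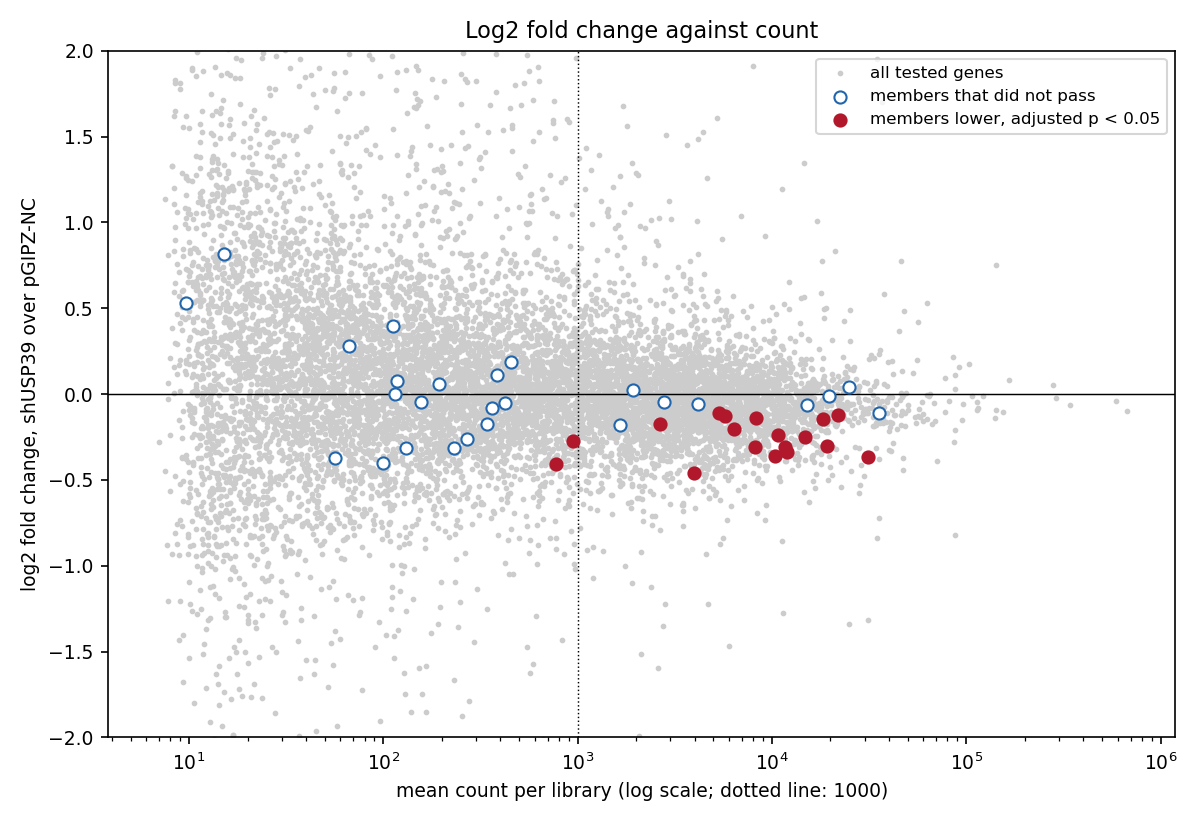
Log2 fold change (vertical axis, shUSP39 over pGIPZ-NC) against the mean count per library (log scale) for all 10695 tested genes (grey) and the 44 tested mitosis genes (red, lower; open blue, did not pass). Right of the dotted line at 1000 counts, 16 of 24 mitosis genes were lower, and left of it 2 of 20. The axis was cut at a log2 fold change of 2 in either direction, which leaves out 301 genes.

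Counts went with the number of RefSeq mRNAs a gene has. The 21 genes with 1 RefSeq mRNA had a median mean count of 10680.0 per library, while the 26 with several had 175, and AURKA, with 13 RefSeq mRNAs, had 9.67. How the counting treated reads shared by several transcripts of a gene is not given in the sources used here, so a low count was not read as low expression. Of the 21 genes with 1 RefSeq mRNA, 15 were lower, where 24.9% of all tested genes of that kind were, and their median log2 fold change was −0.20. Of the 23 tested genes with several, 3 were lower (CCNB1, ANAPC5 and ANAPC7), where 13% of all such genes were. Levels were compared between genes only within the 21, per kb of the longest coding transcript in pGIPZ-NC. CDC20 was highest at 446 CPM per kb, then PLK1 at 296, TPX2 at 206, TOP2A at 201, RAD21 at 185 and CCNA2 at 183, and NCAPG was lowest at 6.20.

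Among well-counted mitosis genes, those with more exons tended to have the larger falls. Of the 8 with 20 or more exons, 7 were lower and their median log2 fold change was −0.31. All genes of that kind had a median of −0.13, and 48.8% of them were lower. Of the 16 with fewer exons, 9 were lower and the median was −0.12, against −0.03 and 30% for all genes of that kind. ANAPC1 with 48 exons, TOP2A with 35, NCAPD2 with 32, ESPL1 with 31 and SMC3 with 29 all fell, and CENPF, with 20, did not pass. NDC80, with 17 exons, and RAD21, with 14, fell as much with fewer. Over the 24 genes, Spearman's rho between exon number and log2 fold change was −0.62 and Pearson's r −0.61, against a rho of −0.21 over 3644 genes with 1000 counts or more. These are descriptions over genes of the same 6 libraries, which are not independent replicates, and the part of transcript length was not tested.

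**Figure D4:**
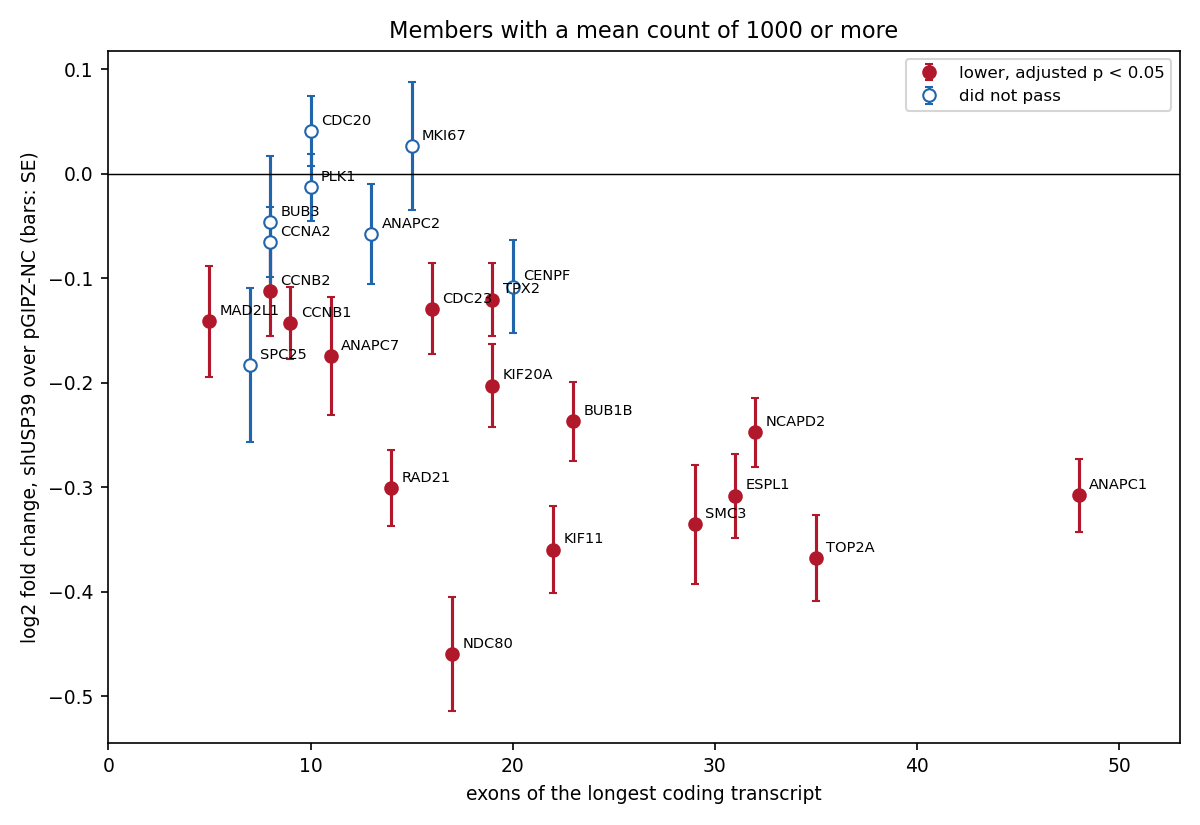
Log2 fold change (shUSP39 over pGIPZ-NC, bars of 1 SE) against the number of exons of the longest coding transcript for the 24 mitosis genes with a mean count of 1000 or more. Filled red points were lower at an adjusted p under 0.05 and open blue points did not pass. Of the 8 genes with 20 or more exons, 7 are red.

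Since USP39 is a splicing factor, the share of each transcript was compared for the 6 genes with at least 2 testable transcripts, ANAPC7, AURKB, CENPE, PTTG1, SMC2 and SPC24. None passed edgeR's test of transcript usage after adjustment, where 2.03% of 1628 genes did, and 1 was under 0.05 without adjustment, ANAPC7 (unadjusted p = 0.0029, adjusted p = 0.105). Its transcript NM_001137664.1 took 5.82%, 5.52% and 4.95% of the gene's counts in the pGIPZ-NC libraries and 7.96%, 8.43% and 8.17% in the shUSP39 libraries. The groups did not overlap, and the rest belonged to NM_016238.2. By itself NM_016238.2 fell (log2 fold change −0.21, adjusted p = 0.00504), while NM_001137664.1 did not pass (0.41, adjusted p = 0.0630). By the gene-level F test of the same tool ANAPC7 passed (adjusted p = 0.0350), as did 3.69% of the 1628 genes. Leaving out 1 library in the first of these tests gave adjusted p from 0.188 to 0.532. In CENPE, NM_001286734.1 took 33.1%, 28.1% and 26.4% of the counts in pGIPZ-NC and 42.1%, 49.0% and 38.6% in shUSP39, on a mean of 115 counts per library, and did not pass. The table holds known RefSeq transcripts only, so retained introns and new junctions were not analysed here. ANAPC7 has 7 RefSeq mRNAs, of which the table holds 2. How reads shared by transcripts were assigned is not given in the sources used here, so the shares describe the deposited counts only.

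Other genes of the same machinery were read from 5 further lists. These held other APC/C subunits and partners, and cohesin and condensin, kinetochore and checkpoint, spindle and cytokinesis, and mitotic entry genes. Of 82 tested, 22 were lower and 1 was higher, where 17.5% and 16.1% of all tested genes were, and the median log2 fold change was −0.14. Spindle and cytokinesis genes had the largest share, with 10 of 19 lower. KIF18A, a motor that limits chromosome movement at the metaphase plate, was at 97.9, 93.2 and 78.1 CPM in the pGIPZ-NC libraries and 49.7, 45.4 and 47.2 CPM in the shUSP39 libraries and fell by 47.2% (log2 fold change −0.92, SE 0.072, adjusted p = 6.98e-11). Every shUSP39 library was far under every control, and the fall exceeded that of any of the 18 called mitosis genes above. KIF15, a motor that works with KIF11, and CKAP5, a microtubule polymerase, had log2 fold changes of −0.46 and −0.48 (adjusted p = 2.67e-07 and 4.64e-06). Of cohesin and condensin genes, 5 of 14 were lower, led by PDS5B (−0.63, adjusted p = 3.36e-10) and PDS5A (−0.30, 1.40e-06), regulators that bind the cohesin ring, and ESCO2 (−0.47, 6.53e-07), which acetylates SMC3. Of kinetochore and checkpoint genes, 6 of 32 were lower (18.8%), a share near the 17.5% of all tested genes. Among them were KNTC1 (−0.40, 2.02e-07) and ZW10 (−0.24, 0.000127), which form a complex at unattached kinetochores, and SKA3 (−0.48, 0.00391). Of mitotic entry genes, GTSE1 (−0.25, 6.53e-06) was lower of 7 tested (14.3%, against the same 17.5%). Of the 10 tested APC/C genes of these lists, which include further subunits of the complex, none was lower. All but CDC26 and UBE2S had a mean count under 1000, where 9.01% of all such genes were lower. Of the 10, 6 had a negative log2 fold change and the median was −0.04. ANAPC15 (−0.88) and ANAPC10 (−0.67) averaged 47.3 and 13.0 counts per library and did not pass. UBE2S, the enzyme that extends ubiquitin chains for the APC/C, was higher. It was at 1175, 1221 and 1183 CPM in the pGIPZ-NC libraries and 1374, 1322 and 1387 CPM in the shUSP39 libraries. Its groups did not overlap (log2 fold change 0.19, SE 0.030, adjusted p = 1.33e-05). With shUSP39 replicate 1 alone, 6 spindle and cytokinesis genes and 2 kinetochore and checkpoint genes were lower, the call of SKA3 being lost (adjusted p = 0.0945). Without pGIPZ-NC replicate 3, 2 mitotic entry genes were lower, and without shUSP39 replicate 1, 1 gene of the APC/C subunits and partners was.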

How the data were processed

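RNA-seq of 6 A2780 libraries was analysed, 3 pGIPZ-NC and 3 shUSP39, grouped by their labels. The authors deposited read counts per RefSeq mRNA, not normalized, and per the labels the submitters' processing notes name HISAT2, Cufflinks and hg19 without roles. The counter, its use of strand and its treatment of shared reads are not given in the sources used here. The authors' columns of group means, fold changes, p-values and q-values were not used.

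Counts were summed per gene symbol, 16571 genes with total counts of 28294819 to 32939264 per library. Genes were filtered with edgeR's filterByExpr, which kept 10695 genes and 99.96% of counts, scaled by TMM and tested with the quasi-likelihood test of edgeR 4.0.16 (R 4.3.3, limma 3.58.1) with group as the term and Benjamini-Hochberg adjustment over all tested genes. The common biological coefficient of variation was 7.59%. SE was the log2 fold change divided by the square root of F. Transcript usage was tested with diffSpliceDGE (Simes). DESeq2 1.42.0 and limma-voom were alternatives. Scripts were tested on simulated data. Gene coordinates and exons came from GENCODE release 44 mapped to GRCh37 and promoter windows from RefSeq, GRCh38.p14. With 3 libraries per group, their number and the counts limit the precision.

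Values in every library are given for genes with an adjusted p under 0.05 and a log2 fold change of at least 0.3 in size, and otherwise for the gene of lowest adjusted p in a group. From each further list at most 3 genes of lowest adjusted p are named. Values in every library of CCNA2, PLK1, CDC20, MAD2L1 and MKI67, the values of CDC6 and the 6 promoters shown were chosen after values were seen. The mitosis genes and all lists were chosen with earlier results of these data known.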

Additional observations from a re-analysis of the deposited data

How the results depend on the processing

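Across 16 alternatives, 15 planned and 1 added after seeing the data, no mitosis gene passed the test beyond 2-fold, and the 18 called genes kept their direction. Without pGIPZ-NC replicate 2, the log2 fold changes of CDC25B (1.30) and ANAPC4 (1.13), and without shUSP39 replicate 2 that of ANAPC4 (1.00), reached that size without passing. Upper-quartile scaling gave 13 lower and 1 higher (CDC20), a median log2 fold change of −0.091 and a median of 0.05 over all genes, and moved the share of higher calls among all called genes from 48.0% to 58.0%. With library size only, 15 were lower. Without a filter 20 were lower and the median over all genes was 0.12. Leaving out 1 library gave 13 to 19 lower, 0 to 1 higher, medians from −0.16 to −0.10 and 31 to 35 lower genes in the further lists; the lowest count of 13 came without shUSP39 replicate 3, and the 1 higher gene was TTK, without pGIPZ-NC replicate 1. With shUSP39 replicate 1 alone, the alternative added after seeing the data, in which the lone library is assumed to vary like the controls, 11 mitosis genes and 22 genes of the further lists were lower. The gene-level F test gave 1 gene with a change in transcript usage. The causes of these shifts were not tested.

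The labels tie the replicate numbers to no shared culture or day. The deviations of same-numbered libraries correlated at 0.069, 0.005 and 0.022 over all tested genes and at 0.42, 0.082 and 0.23 over genes with a mean count of 1000 or more. On both sets pGIPZ-NC replicate 2 correlated best with shUSP39 replicate 3 (0.030 and 0.16), so the numbers were not taken as pairs, and a partial pairing was not tested. With the replicate number as a block, 20 mitosis genes and 42 genes of the further lists were lower, and CENPF (adjusted p = 0.000298) and SPC25 (adjusted p = 0.0175) passed edgeR's test.

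Some genes that did not pass changed sign. PLK1 was at 0.032 with upper-quartile scaling and 0.013 with library size only, KIF23 at 0.000304 with upper-quartile scaling, and CENPE at −0.0042 without a filter. With the highest transcript of each gene CENPE was at −0.30 and SMC2 at −0.021. With shUSP39 replicate 1 alone BUB3 was at 0.10 and KIF23 at 0.21. Leaving out 1 library ranged PTTG1 from −0.15 to 0.017, MKI67 from −0.011 to 0.051, BIRC5 from −0.041 to 0.21, CENPE from −0.13 to 0.13, BUB3 from −0.13 to 0.0196, CENPA from −0.11 to 0.0055 and KIF23 from −0.19 to 0.091.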

Other observations

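The remaining 3 lists describe the cell cycle around mitosis. Of 17 tested S phase genes, 8 were lower and 1 was higher in shUSP39, where 17.5% and 16.1% of all tested genes were (33.1% lower among genes with a mean count of 1000 or more), with a median log2 fold change of −0.17. The count of lower genes was 5 without pGIPZ-NC replicate 2, with shUSP39 replicate 1 alone and with upper-quartile scaling. TYMS, which makes thymidylate for DNA synthesis, was at 378, 393 and 389 CPM in the pGIPZ-NC libraries and 293, 304 and 294 CPM in the shUSP39 libraries and fell by 23.2% (log2 fold change −0.38, SE 0.036, adjusted p = 2.82e-09, edgeR). MCM6, a subunit of the replicative helicase, and RRM1, a subunit of ribonucleotide reductase, had log2 fold changes of −0.31 and −0.27 (adjusted p = 2.64e-08 and 0.000336). The gene that was higher was CDC6, which loads that helicase (log2 fold change 0.17, SE 0.038, adjusted p = 0.00105).

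Of 5 tested CDK inhibitors, which restrain the cell cycle, 3 were lower and none higher, against the same 17.5% and 16.1%. CDKN1A, or p21, and CDKN1C averaged 2.5 and 3.17 counts per library and had too few to be tested. CDKN1B, or p27, was at 116, 108 and 114 CPM in the pGIPZ-NC libraries and 91.9, 90.8 and 86.7 CPM in the shUSP39 libraries and fell by 20.3% (log2 fold change −0.33, SE 0.052, adjusted p = 1.48e-05). CDKN2A and CDKN2C had log2 fold changes of −0.64 and −0.21 (adjusted p = 0.000746 and 0.00713), and both calls were lost with shUSP39 replicate 1 alone (−0.51 and −0.17, adjusted p = 0.0502 and 0.187). Of 12 tested regulators of G2/M transcription, 2 were lower (16.7%), a share near the 17.5% of all tested genes, namely TFDP1, a partner of E2F factors (log2 fold change −0.32, adjusted p = 0.0046), and the repressor E2F8 (log2 fold change −0.57, adjusted p = 0.00887). The call of E2F8 was lost with shUSP39 replicate 1 alone (−0.57, adjusted p = 0.0918) and without pGIPZ-NC replicate 3 (−0.41, adjusted p = 0.0888). Over all 8 further lists, 35 of 116 tested genes were lower (30.2%) and 2 higher, against 17.5% and 16.1% of all tested genes.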
